A study of Mus musculus with 8 samples.

Results

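Lipid barrier enzymes and transporters were described in whole skin of newborn FVB mice, an inbred strain, on 8 oligonucleotide microarrays. The 7 member genes, chosen with earlier results of these data known, were Alox12b, Aloxe3, Abca12, Elovl4, Ugcg, Sptlc2 and Smpd1. Every probe set whose single gene symbol in the platform annotation was one of them was taken, whatever its measured values. These were 9 probe sets of 6 genes, of 22690 probe sets and 12394 genes on the array. Abca12 had no such probe set and was not analysed here. The 4 genotypes, with 2 arrays each, were pRb_null (pRb-/-;p53+/+), p53_null (pRb+/+;p53-/-), double_null (pRb-/-;p53-/-) and control. The loss was somatic and in stratified epithelia, per the study's title. What drives it, and which alleles the control animals carry, are not given in the sources used here. Each array held RNA pooled from 3 animals of 1 genotype, so the spread between animals was not measured, and nothing says that the 2 pools of a genotype were independent. P-values therefore measure the spread between arrays, which may be technical.

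The outer epidermis holds back water with sheets of ceramides, cholesterol and fatty acids between its dead cells. Granular keratinocytes make these lipids, store glucosylated ceramides and sphingomyelin in lamellar granules, and convert them back to ceramide outside the cell. Among the members, Sptlc2 is a subunit of serine palmitoyltransferase, which starts sphingolipid synthesis. Elovl4 extends very-long-chain fatty acids for acylceramides, and Ugcg adds the glucose that the storage form carries. Abca12 loads these lipids into lamellar granules, and Smpd1, the acid sphingomyelinase, releases ceramide from sphingomyelin. Alox12b oxygenates the linoleate of acylceramides and Aloxe3 converts its product, a sequence of steps needed to attach the lipid envelope to the cornified cell.

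All values are standardized scores: each probe set was deposited with mean 0 and SD 1 over the 8 arrays. Scores are thus in units of a probe set's own SD, hold no expression level and give no fold change, so neither the levels of different genes nor the presence of skin markers can be read from them. In whole skin, fewer cells of a type and less RNA per cell cannot be told apart.

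Both epidermal lipoxygenases, the acid sphingomyelinase and 1 of the 3 Ugcg probe sets scored highest in double_null, with both double_null arrays above all 6 others. These were 4 of 9 member probe sets, where 1779 of all 22690 probe sets (7.84%) had the same order. The genes were not chosen blind to these data, so this share is a description. The mean score of Elovl4 was highest in pRb_null and lowest in p53_null on both of its probe sets. Sptlc2 was spread by a single low double_null array. None of the 81 differences tested (9 probe sets in 9 comparisons) passed the test, limma's linear model without variance moderation with Benjamini-Hochberg adjustment over all 22690 probe sets and a threshold of 0.05. The smallest adjusted p was 0.12. Limma's moderated test also passed 0, with a smallest adjusted p of 0.155. At an unadjusted p under 0.05 there were 16 differences (19.8% of the 81), 12 higher and 4 lower, where 15.1% of the same tests over all probe sets were under it. The plot of scores by array shows all 72 values.

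**Figure D1:**
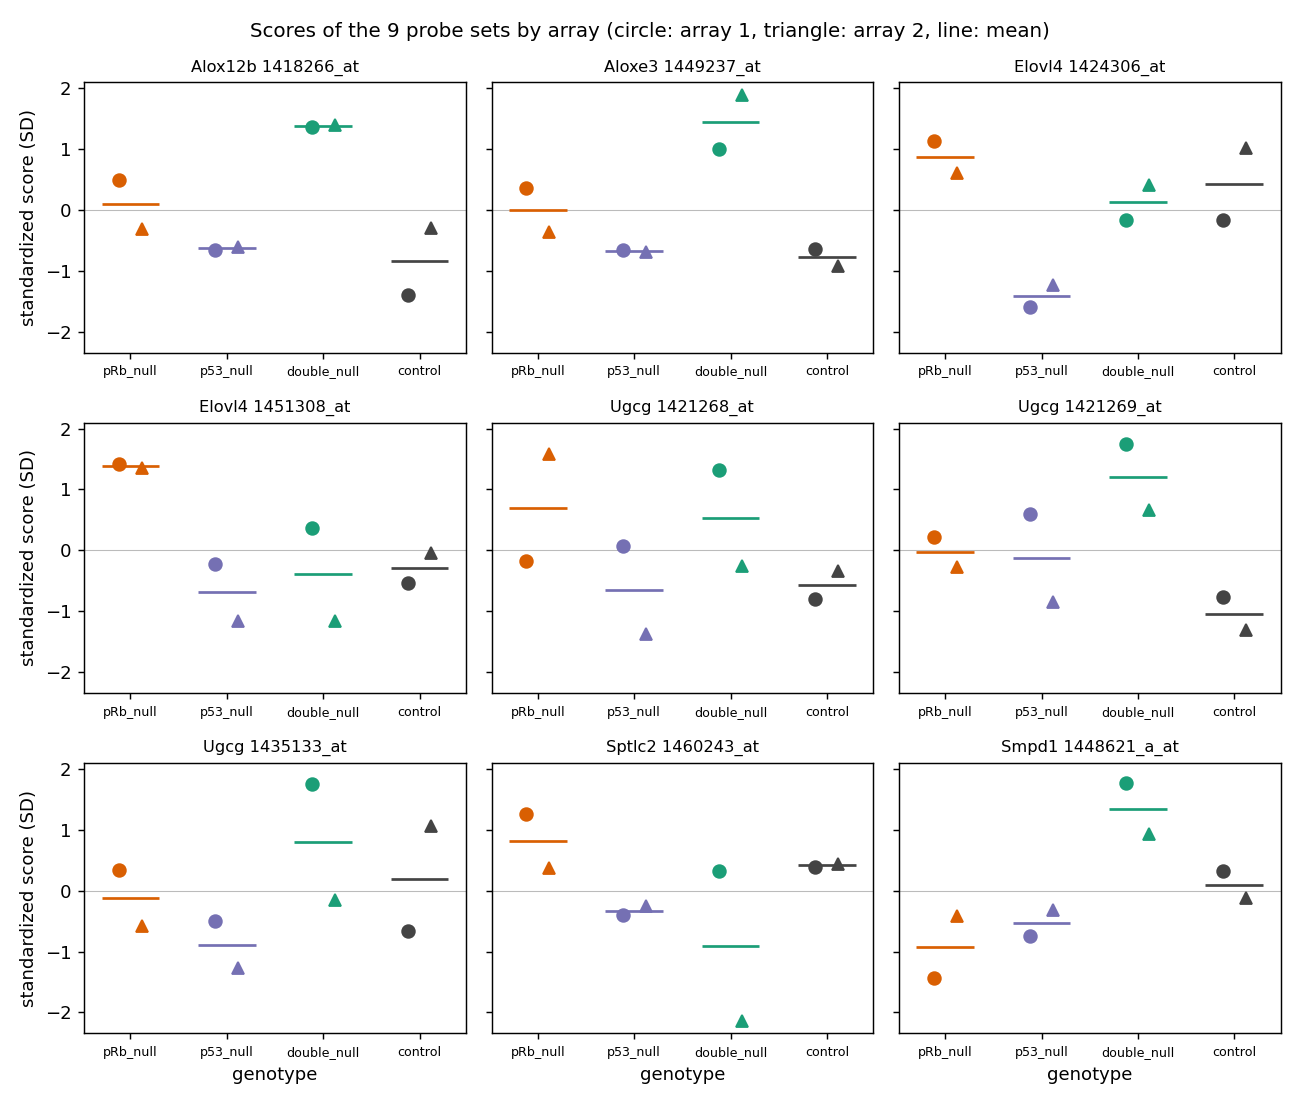
Standardized scores (SD units) of the 9 probe sets by genotype, with a circle for array 1, a triangle for array 2 and a line at the mean of the 2. Both double_null arrays lie above the other 6 in the panels of Alox12b, Aloxe3, Smpd1 and Ugcg 1421269_at, and the p53_null arrays are the lowest for Elovl4 1424306_at.

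Sequence before the transcription start is shown for 3 members: Alox12b and Smpd1, which scored highest in double_null, and Sptlc2, whose mean was lowest there. Each line gives the 250 bases before the start on the gene's own strand, from RefSeq on build GRCm38.p6, 5′ to 3′, in lower case. Capitals mark CCAAT or its complement ATTGG, the box that the factor NF-Y binds. The coordinates are chr11:69156822-69157071 (plus strand) for Alox12b, chr7:105554110-105554359 (plus strand) for Smpd1 and chr12:87388356-87388605 (minus strand) for Sptlc2.
Alox12b: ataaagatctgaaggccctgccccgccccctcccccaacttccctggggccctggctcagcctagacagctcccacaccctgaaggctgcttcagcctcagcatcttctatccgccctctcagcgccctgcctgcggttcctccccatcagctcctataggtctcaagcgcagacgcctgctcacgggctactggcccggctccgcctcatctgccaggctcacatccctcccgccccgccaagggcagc
Smpd1: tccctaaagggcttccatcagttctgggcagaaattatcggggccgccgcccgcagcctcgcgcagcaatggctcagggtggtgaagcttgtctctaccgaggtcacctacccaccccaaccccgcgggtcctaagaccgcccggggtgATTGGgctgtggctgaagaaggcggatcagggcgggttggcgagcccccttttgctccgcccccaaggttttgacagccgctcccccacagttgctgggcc
Sptlc2: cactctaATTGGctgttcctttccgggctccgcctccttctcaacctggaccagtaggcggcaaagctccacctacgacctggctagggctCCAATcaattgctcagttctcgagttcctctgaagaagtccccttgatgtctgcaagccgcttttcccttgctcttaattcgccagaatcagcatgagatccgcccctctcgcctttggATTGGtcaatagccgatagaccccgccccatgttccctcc

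Promoters of 6 of the 7 members matched the RefSeq table (Alox12b, Abca12, Elovl4, Ugcg, Sptlc2 and Smpd1), and 5 motifs were searched on both strands from 250 bases before to 50 bases after the start. CCAAT was found 3 times in Sptlc2, with first bases at −243, −159 and −40 from the start, once in Smpd1, at −101, and once in Elovl4, at 26. Of the 32544 distinct promoters in the table, 37.4% hold CCAAT. The E2F letters TTTCCCGC (1.08% of promoters) and TTTGGCGC (0.519%), the AP-1 letters TGANTCA (7.79%) and the TATA letters TATAAA (13.6%) were in none of the 6 windows. No searched motif overlapped another there.

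Sptlc2, on the first step of sphingolipid synthesis, was measured by 1460243_at. Its scores were 1.26 and 0.38 in pRb_null, −0.41 and −0.25 in p53_null, 0.33 and −2.14 in double_null, and 0.39 and 0.44 in control. The second double_null array was the lowest of all, 2.47 below the other double_null array, while the control arrays were 0.0478 apart. The order of the means was pRb_null, control, p53_null and double_null, at 0.82, 0.42, −0.33 and −0.91, and no neighbours in that order differed beyond the spread between arrays (unadjusted p from 0.466 to 0.686). The difference between double_null and control was −1.32, with a 95% interval from −3.90 to 1.25. All 4 arrays of p53-deficient skin (p53_null and double_null) lay below all 4 of p53-intact skin (pRb_null and control), with a mean of −0.62 against 0.62. The exact two-sided permutation test of 4 arrays against 4 gave p = 0.0286, the smallest it can give over 70 splits. After Benjamini-Hochberg adjustment over the 18 such tests made, p was 0.257. The permutation test treats the 8 arrays as exchangeable, although they fall into 4 pairs of 1 genotype. Its p, here and for other members below, is therefore a description and cannot decide an effect of p53 or pRb loss. The model gave −1.24, with a 95% interval from −3.06 to 0.58 and an adjusted p of 0.356.

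Elovl4, the fatty acid elongase, had 2 probe sets, which the annotation ties to the same deposited transcript sequence and which are therefore not independent of each other. On 1424306_at the scores were 1.13 and 0.60 in pRb_null, −1.60 and −1.24 in p53_null, −0.16 and 0.41 in double_null, and −0.17 and 1.03 in control. Both p53_null arrays lay below the other 6. On 1451308_at the scores were 1.41 and 1.35 in pRb_null, −0.22 and −1.17 in p53_null, 0.37 and −1.16 in double_null, and −0.54 and −0.0405 in control. There both pRb_null arrays lay above the other 6, and p53_null overlapped double_null and control.

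The probe sets of Elovl4 gave the same direction for p53_null against pRb_null. That difference was −2.28 ± 0.52 (SE) with an adjusted p of 0.191 on 1424306_at, and −2.07 ± 0.66 with an adjusted p of 0.275 on 1451308_at. For p53_null against control the first gave −1.85 ± 0.52 (adjusted p = 0.266) and the second −0.40, with a 95% interval from −2.24 to 1.44. For double_null against p53_null the first gave 1.54 ± 0.52 (adjusted p = 0.399) and the second 0.30. The mean of the 2 probe sets differed by −1.12 between p53_null and control, by 0.92 between double_null and p53_null and by −2.18 between p53_null and pRb_null. In p53-deficient against p53-intact skin 1424306_at had a mean of −0.65 against 0.65, a difference of −1.29 ± 0.37 with an adjusted p of 0.167. The exact permutation test gave p = 0.0857 for it. Without control replicate 1 the difference between p53_null and control was −2.45, and without control replicate 2 it was −1.25.

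Ugcg, the glucosylceramide synthase, had 3 probe sets, of which 1421268_at and 1421269_at are tied to the same deposited sequence. On 1421269_at the scores were 0.22 and −0.27 in pRb_null, 0.59 and −0.85 in p53_null, 1.74 and 0.66 in double_null, and −0.77 and −1.31 in control. Both double_null arrays were above the other 6, and control lay below pRb_null and double_null without overlap. The difference between double_null and control on this probe set was 2.24 ± 0.69 (SE), with an adjusted p of 0.217.

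The other Ugcg probe sets had no difference with an unadjusted p under 0.05. On 1421268_at the scores were −0.18 and 1.58 in pRb_null, 0.0731 and −1.38 in p53_null, 1.32 and −0.26 in double_null, and −0.81 and −0.33 in control. On 1435133_at they were 0.35 and −0.58 in pRb_null, −0.50 and −1.27 in p53_null, 1.76 and −0.15 in double_null, and −0.66 and 1.06 in control. Without overlap, pRb_null and double_null lay above control on the first, and double_null above p53_null on the second. The arrays of a genotype were up to 1.76 apart on the first and 1.91 apart on the second. Double_null against control differed by 1.10 (95% interval −1.66 to 3.86) on 1421268_at and by 0.60 (−2.18 to 3.39) on 1435133_at. The mean of the 3 probe sets differed by 1.32. The first array of double_null was the higher one on all 3 probe sets, and the first array of p53_null likewise.

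Smpd1 was measured by 1448621_a_at, a probe set whose probes match several transcripts of the gene. Its scores were −1.43 and −0.41 in pRb_null, −0.75 and −0.31 in p53_null, 1.77 and 0.93 in double_null, and 0.32 and −0.12 in control. Both double_null arrays lay above the other 6, and both single losses lay below control without overlap. Double_null against pRb_null differed by 2.27 ± 0.52 (SE) with an adjusted p of 0.165, and double_null against p53_null by 1.88 ± 0.52 with an adjusted p of 0.336. Against control, double_null differed by 1.25, with a 95% interval from −0.19 to 2.69. The single losses differed from control by −1.02 (−2.46 to 0.42) in pRb_null and −0.63 (−2.07 to 0.81) in p53_null. The interaction, which asks whether pRb loss has the same effect with and without p53, was 2.90 ± 0.73 with an unadjusted p of 0.0167 and an adjusted p of 0.365 in limma's fit.

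Of the epidermal lipoxygenases, Alox12b (1418266_at) scored 0.50 and −0.31 in pRb_null, −0.65 and −0.61 in p53_null, 1.37 and 1.40 in double_null, and −1.40 and −0.29 in control. The double_null arrays were 0.0306 apart, and the control arrays 1.11 apart. Aloxe3 (1449237_at) scored 0.37 and −0.36 in pRb_null, −0.65 and −0.70 in p53_null, 1.00 and 1.89 in double_null, and −0.64 and −0.91 in control. For both genes p53_null and control overlapped, and pRb_null lay between them and double_null in its mean.

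Double_null against control differed by 2.23 ± 0.49 (SE) for Alox12b, with an adjusted p of 0.144, and by 2.22 ± 0.42 for Aloxe3, with an adjusted p of 0.12. Double_null against p53_null differed by 2.01 ± 0.49 (adjusted p = 0.3) and 2.12 ± 0.42 (adjusted p = 0.246) in the same order. Double_null against pRb_null differed by 1.29 for Alox12b, with a 95% interval from −0.0653 to 2.64, and by 1.44 ± 0.42 for Aloxe3, with an adjusted p of 0.217. The order of means was double_null, pRb_null, p53_null and control for both. Below double_null no neighbours in it differed beyond the spread: pRb_null and p53_null were apart by less than 1 SD, with a 95% interval for p53_null against pRb_null from −2.08 to 0.63 for Alox12b and −1.84 to 0.49 for Aloxe3.

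In pRb-deficient skin (pRb_null and double_null) against pRb-intact skin (p53_null and control), Alox12b had a mean of 0.74 against −0.74 and Aloxe3 of 0.73 against −0.73. The differences were 1.48 ± 0.34 (SE, adjusted p = 0.267) and 1.45 ± 0.30 (adjusted p = 0.238). All 4 pRb-deficient arrays lay above all 4 pRb-intact arrays for Aloxe3, where the exact permutation test gave p = 0.0286 and, adjusted over the 18 tests, p = 0.257. For Alox12b, where the groups overlapped, the exact permutation test gave p = 0.0571. Without control replicate 1 the Alox12b difference between double_null and control was 1.67, and without control replicate 2 it was 2.78.

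**Figure D2:**
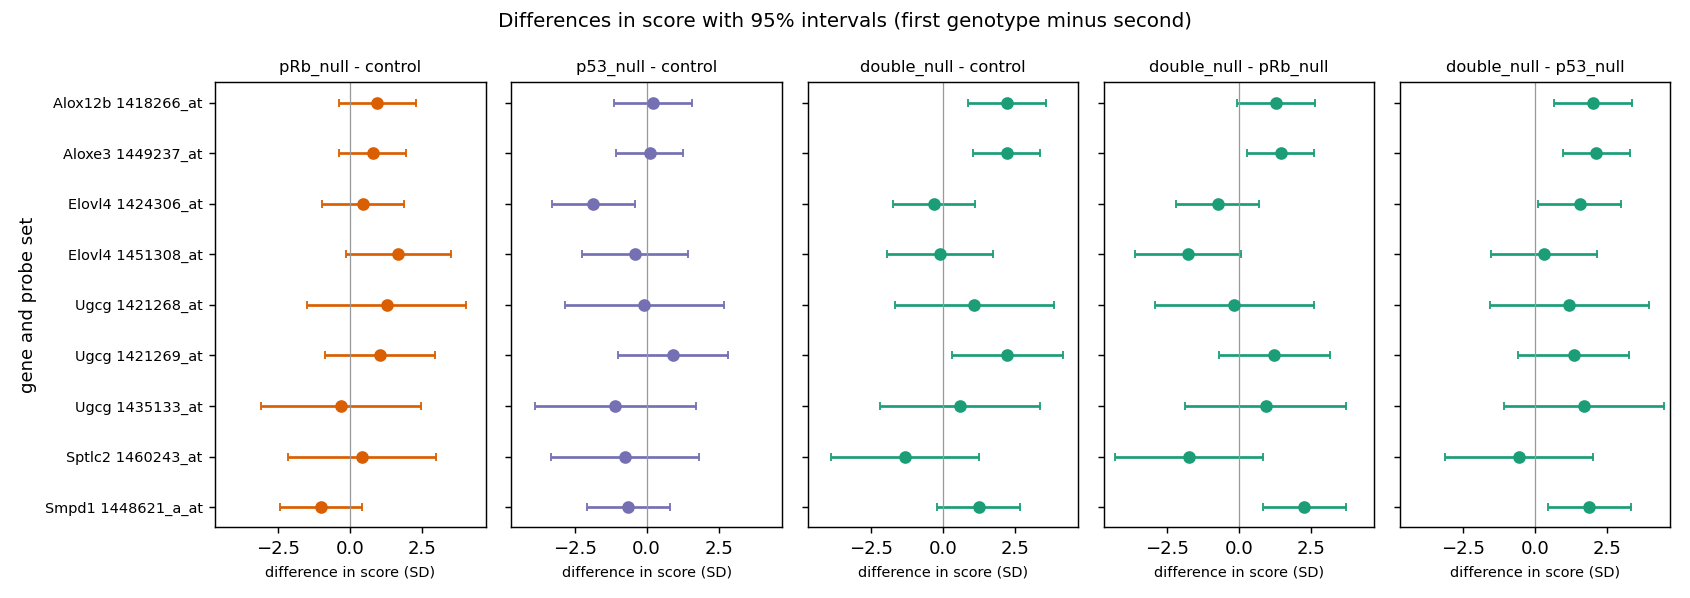
Differences in standardized score (SD units, first genotype minus second) of the 9 probe sets in 5 comparisons, with 95% intervals from limma's linear model without moderation. In double_null against control the intervals of Alox12b, Aloxe3 and Ugcg 1421269_at lie above 0, while in pRb_null against control every interval holds 0.

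Alox12b and Aloxe3 are neighbours on chromosome 11 (GRCm38.p6), Aloxe3 at 69125417 to 69149115 and Alox12b at 69157072 to 69169791, with 7956 bases between them. Within 50000 bases on either side the annotation lists 5 further protein-coding genes, all with a probe set. For double_null against control these gave −0.0927 for Vamp2, −1.92 for the circadian gene Per1, −0.78 for the Notch effector Hes7, −1.03 for the lipoxygenase Alox8 and 0.35 for the guanylate cyclase Gucy2e, with adjusted p from 0.186 to 0.959. The highest of these 5 was thus 0.35, where the lipoxygenase pair had 2.22 and 2.23. Per1 differed in the other direction, and neither Per1 (adjusted p = 0.186) nor the pair (0.12 and 0.144) passed the test. Each difference is in units of its own probe set's SD, so sizes are not comparable between these genes.

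Over the 8 arrays the scores of Alox12b and Aloxe3 correlated with Pearson's r = 0.901 and Spearman's rho = 0.667. Without the 2 arrays farthest from the median of Alox12b, r was 0.694. Aloxe3 ranked 85th of all other probe sets in its correlation with Alox12b. These values are a description over 8 arrays that fall into 4 pairs of 1 genotype, so no p is given. Of the 36 pairs of member probe sets, 28 correlated positively and 8 negatively, with r from −0.517 (Aloxe3 and Sptlc2) to 0.901 and a median of 0.35. Between probe sets of the same gene r was 0.531 for Elovl4 and 0.563, 0.468 and 0.444 for Ugcg.

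**Figure D3:**
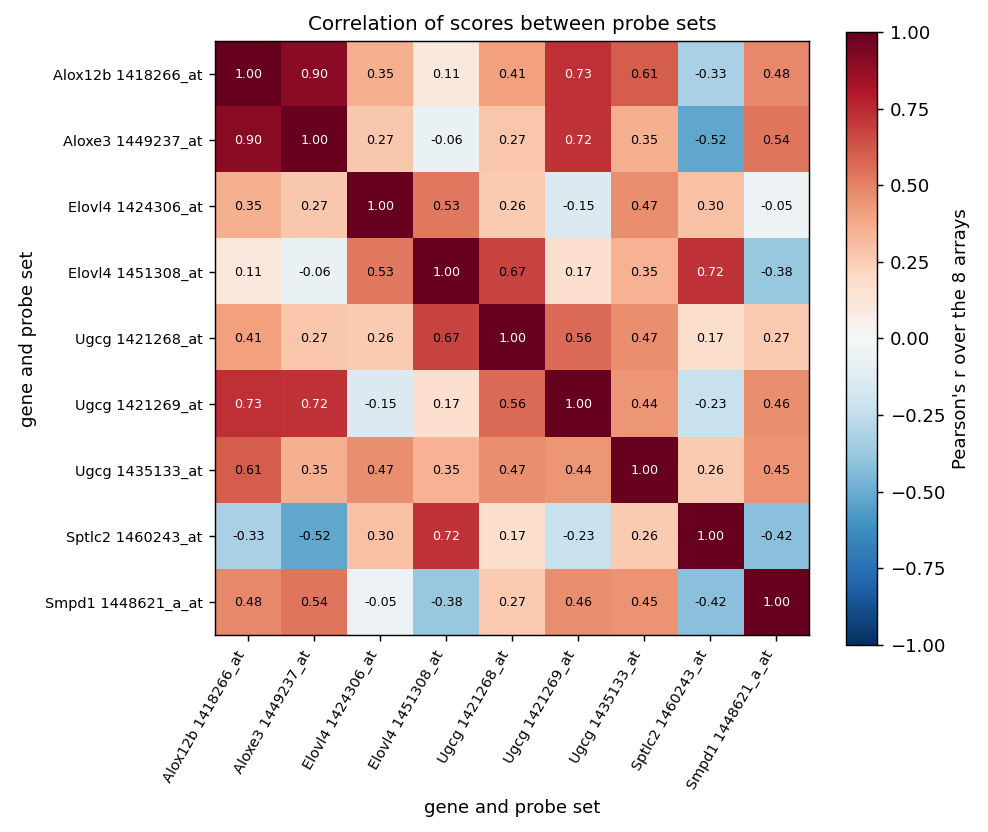
Pearson's r over the 8 arrays between the 9 probe sets, in red where positive and blue where negative. The pair Alox12b and Aloxe3 has the highest value, 0.901, and Aloxe3 with Sptlc2 the lowest, −0.517.

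For the first probe set of each member the genes outside the set with the most similar scores over the 8 arrays were named. They were Klf5 (r = 0.988), a Krüppel-like transcription factor of epithelia, and Plxdc2 (0.974) for Alox12b, and Ucp3 (0.98), a mitochondrial uncoupling protein, and St8sia4 (0.976), a sialyltransferase, for Aloxe3. For Elovl4 they were Rasgrp1 and Cttn (0.982 each), and for Ugcg Insig2 (0.974), a regulator of sterol synthesis, and the sheddase Adam17 (0.962). For Sptlc2 they were Elovl5 (0.968), another fatty acid elongase, and Eloc (0.963), and for Smpd1 the matrix protein Efemp1 (0.967) and the phosphatase Ptprz1 (0.962). These genes were picked as the highest r among all other probe sets with 1 symbol, over only 8 arrays. High values thus follow from the choice, no p is given, and shared regulation was not tested. The Ugcg probe set used here, 1421268_at, had r of only 0.563 and 0.468 with the gene's other probe sets.

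The member counts were read against all probe sets. In pRb_null against control 0 members passed the test, as did 0% of all probe sets, and 0 had an unadjusted p under 0.05, against 6.44% of all probe sets higher and 4.21% lower. In p53_null against control 0 passed (0.119% of all), and 1 was lower at an unadjusted p under 0.05 (7.23% lower and 7.38% higher of all). In double_null against control 0 passed (0.846% of all) and 3 of 9 were higher and 0 lower, where 8.77% of all probe sets were higher and 9.91% lower. In double_null against pRb_null 0 passed (0.405%) and 2 were higher and 0 lower, against 7.71% and 10.9%. In double_null against p53_null 0 passed (0.0353%) and 4 were higher and 0 lower, against 5.99% and 5.91%. In p53_null against pRb_null 0 passed (0.0573%) and 0 were higher and 2 lower, against 6.81% and 9.41%.

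For the interaction 0 members passed, as did 0% of all, and 1 was higher and 0 lower, against 4.46% and 6.01%. In p53-deficient against p53-intact skin 0 passed (1.26% of all) and 0 were higher and 1 lower, against 9.71% and 12.4%. In pRb-deficient against pRb-intact skin 0 passed (0.00441% of all) and 2 were higher and 0 lower, against 6.92% and 5.94%. The median difference of the 9 member probe sets was 0.78 in pRb_null, −0.40 in p53_null and 1.10 in double_null against control, where the medians of all probe sets were 0.0657, −0.152 and −0.00573. These comparisons share the control arrays, and probe sets of 1 gene are not separate members.

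Other genes of the pathway were grouped in 6 lists, with 1 probe set per gene. Of the ceramide and sphingolipid enzymes 23 of 32 were measured. Cers4, a ceramide synthase, was the only one of them that passed the test. It scored 0.80 and 0.87 in pRb_null, 0.24 and −0.11 in p53_null, −1.60 and −1.46 in double_null, and 0.51 and 0.76 in control. Both double_null arrays were the lowest. Cers4 fell by 2.16 ± 0.16 (SE) in double_null against control (adjusted p = 0.0363), by 2.37 ± 0.16 against pRb_null (adjusted p = 0.0442), and by 1.47 ± 0.12 in p53-deficient against p53-intact skin (adjusted p = 0.034), in limma's fit. Each call was lost with a replicate block (adjusted p from 0.111 to 0.147) and in limma's moderated test (0.134 to 0.207). Both settings passed none of all probe sets, so that loss is not particular to Cers4. Each was also lost after quantile normalization (0.0692 to 0.108) and with the gene's probe sets averaged (0.142 to 0.190). With array medians set to 0, adjusted p was 0.0393, 0.0527 and 0.0477 in the same order. With 1 array left out, double_null against control lay between −2.29 and −2.04. This range gives only the size of the difference and is no support for the call.

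Degs1, the desaturase that completes ceramide, differed by 2.39 ± 0.40 in double_null against control (adjusted p = 0.104) and by 1.39 ± 0.40 in pRb_null against control (adjusted p = 0.397). Sptssb, a small subunit of serine palmitoyltransferase, differed by −2.25 ± 0.50 in p53_null against control (adjusted p = 0.204). At an unadjusted p under 0.05, the ceramide list had 2 of 23 genes higher and none lower in pRb_null against control, where 6.44% of all probe sets were higher. It had 2 lower and none higher in p53_null (7.23% of all lower). In double_null it had 5 higher with 1 lower (8.77% and 9.91% of all). The medians were −0.18, 0.23 and 0.80, where those of all probe sets were 0.0657, −0.152 and −0.00573.

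Of the enzymes of very-long-chain and omega-hydroxy fatty acids 21 of 26 were measured. Against control and without adjustment, p was under 0.05 for 4 genes in pRb_null (3 higher, 1 lower), for 12 in p53_null (3 higher, 9 lower) and for 11 in double_null (3 higher, 8 lower). The medians were 0.52 in pRb_null, −0.71 in p53_null and −0.82 in double_null. In p53-deficient against p53-intact skin 1 was higher and 10 lower, with a median of −1.31. Of all probe sets 9.71% were higher and 12.4% lower there, with a median of −0.128, and 1.26% passed the test. In the same comparison 13 of 18 hair follicle markers passed the test as lower (median −1.65), 3 of 8 mast cell markers passed as higher (median 1.32), and the 4 measured sebaceous gland markers had a median of −1.02. The 9 measured adipocyte markers had a median of −0.65, with 1 higher, which passed the test, and 4 lower by the unadjusted p. The 12 skeletal muscle markers had a median of −0.83, with 1 higher and 3 lower. Elovl3, at −1.47 ± 0.21 (SE, adjusted p = 0.0722), is in both the sebaceous and the fatty acid list, so these lists are not separate. The part of these markers in the fatty acid result was not tested. In p53-deficient skin Hacd2, a dehydratase of the elongation cycle, fell by 1.82 ± 0.15 (SE, adjusted p = 0.0343) and Elovl6, an elongase of palmitate, fell by 1.72 ± 0.15 (adjusted p = 0.0392). Hacd2 scored −0.87 and −0.97 in p53_null and −0.71 and −1.09 in double_null, against 1.16 and 1.09 in pRb_null and 0.47 and 0.92 in control. Elovl6 scored −0.33 and −0.60 in p53_null and −1.08 and −1.43 in double_null, against 1.20 and 1.04 in pRb_null and 0.79 and 0.41 in control. Neither gene's groups overlapped. Both calls were lost with a replicate block (adjusted p of 0.116 for Hacd2 and 0.0704 for Elovl6) and in limma's moderated test (0.134). Those settings passed none of all probe sets in this comparison, so the loss is not particular to these genes. Both calls were also lost after quantile normalization (0.053 for Hacd2 and 0.0721 for Elovl6) and with array medians set to 0 (0.0559 and 0.0677). They held with each gene's probe sets averaged (0.0311 and 0.00804). With 1 array left out the difference lay between −1.94 and −1.71 for Hacd2 and between −1.81 and −1.625 for Elovl6. These ranges give only the size of the difference and are no support for the calls.

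The remaining lists held no gene that passed the test in any of the 3 comparisons against control or in the 2 averaged ones. Of the barrier regulators and cross-linkers 15 of 18 were measured, and all 15 had a negative difference in p53_null against control, with a median of −1.29. For 5 of them the unadjusted p was under 0.05, where 7.23% of all probe sets were lower. The median of all probe sets in that comparison was −0.152. The transcription factor Cebpb had −2.44 ± 0.34 (adjusted p = 0.117) and the factor Ovol1 −1.70 ± 0.31 (adjusted p = 0.162) there. In double_null against control 1 was higher and 4 lower (8.77% and 9.91% of all probe sets, list median −0.56), with the factor Grhl1 at −2.36 ± 0.35 (adjusted p = 0.0903). In pRb_null against control 1 was higher and 2 lower (6.44% and 4.21% of all, list median 0.17). Of cholesterol synthesis and sulfation 18 of 22 were measured. At the unadjusted threshold pRb_null had 3 of them higher than control (6.44% of all probe sets) and p53_null 2 lower (7.23%). Double_null had 1 higher with 2 lower (8.77% and 9.91%). The medians were 0.66 in pRb_null, −0.81 in p53_null and −0.47 in double_null. Idi1, an isomerase of isoprenoid synthesis, had −2.38 ± 0.34 in double_null (adjusted p = 0.0847).

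Of the other lipoxygenases and their partners 7 of 9 were measured, with medians of −0.14 in pRb_null, −0.93 in p53_null and −0.84 in double_null against control. Alox12e, another lipoxygenase of mouse epidermis, had −1.97 ± 0.41 (SE) in double_null (adjusted p = 0.136), while Alox5ap, the activating protein of leukotriene synthesis, had 1.95 ± 0.29 (adjusted p = 0.0914). At the unadjusted threshold pRb_null had 2 of the 7 genes higher than control (6.44% of all probe sets) and p53_null 2 lower (7.23%). Double_null had 1 higher with 2 lower (8.77% and 9.91%). Of the other lipid ABC transporters 12 of 16 were measured, with medians of −0.23 in pRb_null, 0.055 in p53_null and 0.37 in double_null. Abca1, which exports cholesterol, had 2.23 ± 0.38 in p53_null (adjusted p = 0.151) and 2.15 ± 0.38 in double_null (adjusted p = 0.11). At the unadjusted threshold 4 transporters differed in pRb_null (2 higher, 2 lower), 3 in p53_null (2 higher, 1 lower) and 5 in double_null (4 higher, 1 lower).

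**Figure D4:**
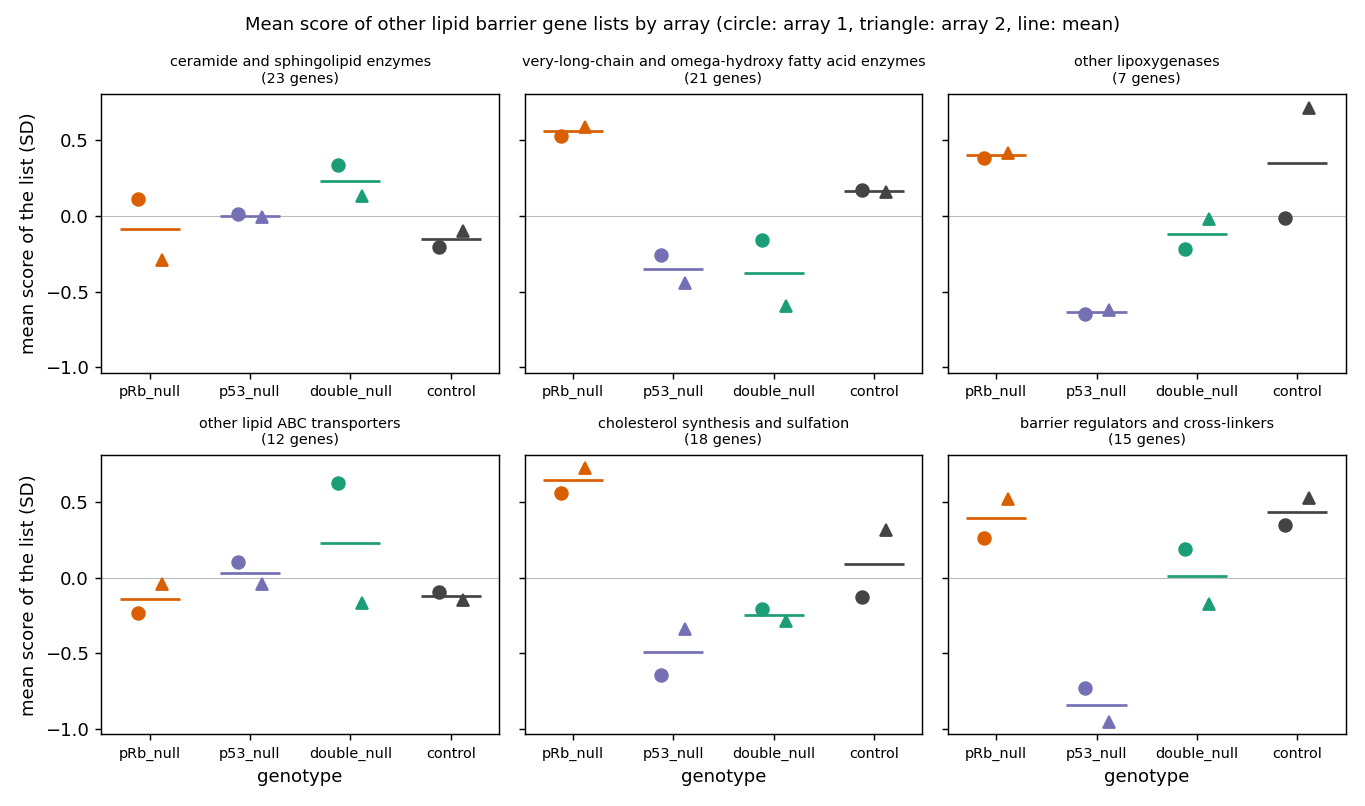
Mean standardized score (SD units) of 6 lists of other lipid barrier genes by genotype, with a circle for array 1, a triangle for array 2 and a line at their mean. For the fatty acid enzymes the 4 p53-deficient arrays lie between −0.594 and −0.159 and the 4 p53-intact arrays between 0.162 and 0.589.

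Markers of the cells that make the barrier, and of other cells of skin, were read on the same arrays. No marker of the spinous and granular, basal, macrophage or fibroblast lists passed the test in any comparison. Against control, 0.846% of all probe sets passed in double_null and 0.119% in p53_null. By the unadjusted p, 8.77% of all were higher and 9.91% lower in double_null, and 7.38% and 7.23% in p53_null. Of 12 measured markers of spinous and granular keratinocytes, double_null had 3 higher and 1 lower than control by the unadjusted p, with a median of 1.24. Their mean score was 0.73 and 0.15 in double_null. The pRb_null arrays had 0.0214 and 0.36 and the p53_null arrays −0.57 and −0.13. Control had −0.22 and −0.34, so double_null lay above control and overlapped pRb_null. Of 18 hair follicle markers 12 fell in double_null by the test, none of them in limma's moderated test, with a mean score of −1.48 and −1.12, against 0.94 and 1.03 in control. In p53_null 1 of the 18 passed as lower and 16 were lower by the unadjusted p, with a mean score of −0.31 and −0.28. Of 11 macrophage and myeloid markers 5 were higher and 0 lower in double_null (mean score 1.22 and 0.80, against −0.62 and −0.21 in control). Of 9 basal keratinocyte markers 0 were higher and 2 lower in double_null (−0.44 and −0.79, against −0.47 and 0.72 in control). Adipocyte markers, of which 9 were measured, had 5 higher and 0 lower in double_null, where 1 passed the test (0.90 and 0.36, against 0.0208 and −0.35 in control), and 1 higher and 6 lower in p53_null (−1.01 and −0.99). The marker that passed was Ucp1, at 1.99 ± 0.09 (SE, adjusted p = 0.0243) in limma's fit and not in its moderated test. Ucp1 was also the marker that was higher in p53_null, at 1.32 ± 0.09, where the other 8 had negative differences.

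Of the remaining marker lists, mast cell markers (8 measured) had medians of 0.26 in pRb_null, 2.00 in p53_null and 1.21 in double_null against control. By the unadjusted p 5 of them were higher in p53_null (7.38% of all probe sets) and 4 in double_null (8.77%). The 3 that passed did so in p53-deficient against p53-intact skin, among them the mast cell proteases Cma1, at 1.75 ± 0.11 (SE, adjusted p = 0.0266), and Tpsab1, at 1.55 ± 0.12 (adjusted p = 0.034), in limma's fit and not in its moderated test. The medians of skeletal muscle markers (12 measured) were 1.62, 0.10 and 0.0862. Dermal fibroblast markers (8 measured) had −0.0241, 0.45 and 1.14, and sebaceous gland markers (4 of 9 measured) 0.17, −0.68 and −0.85. Of the 64 control probe sets of the array, 18 were higher than control in pRb_null by the unadjusted p (6.44% of all probe sets). In p53_null 18 of the 64 were higher and 2 lower (7.38% and 7.23% of all), and in double_null 16 and 2 (8.77% and 9.91%). Their median differences were 0.87, 0.87 and 0.71. The part of these differences in the members' scores was not tested. Arrays of the same genotype correlated with r from 0.118 to 0.337 over all probe sets, and the highest r between genotypes was 0.0935.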

How the data were processed

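The deposited values are standardized scores, 1 per probe set and array; RMA, with no version, is the tool named in the submitters' processing notes. In the table, the mean over the 8 arrays was 0 and the SD 1 for each of the 22690 probe sets (tolerance 1e-06). No source used here says whether logarithms were taken first. The number of arrays limits the precision.

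Symbols came from the platform annotation, updated by Entrez number through RefSeq of GRCm38.p6: 20393 probe sets had 1 symbol, 691 several and 1606 none, and 0 symbols changed. For genes with several probe sets outside the members, 1 was taken by suffix (_at first) and then lowest identifier.

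Limma 3.58.1, in R 4.3.3, was run on all probe sets together, with 1 mean per genotype and 4 residual degrees of freedom, without variance moderation, since moderation depends on the scale of a row. The Benjamini-Hochberg adjustment ran over all probe sets, separately in each of 9 comparisons. The fit was tested on simulated data. Differences of members are printed with an SE where the unadjusted p was under 0.05, and list genes are the 2 with the smallest p. The members, lists and test were chosen with earlier results of these data known. Alternatives were the moderated test, quantile normalization, array medians set to 0, a replicate block, the compared groups alone, probe sets with 1 symbol alone, a gene's probe sets averaged and leaving out each array. Figures were drawn with matplotlib 3.10.9.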

Additional observations from a re-analysis of the deposited data

Results flagged for a closer look

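Smpd1 was flagged because its means moved in opposite directions with and without the other loss. Loss of p53 gave 2.27 in skin that lacked pRb (double_null against pRb_null) and −0.63 in skin that had it (p53_null against control), and in each case the groups did not overlap. Loss of pRb likewise gave 1.88 in skin without p53 (double_null against p53_null) and −1.02 in skin with it (pRb_null against control). The difference itself, the interaction in limma's fit, was 2.90 ± 0.73 (SE) with an adjusted p of 0.365, so it did not pass the test. With 1 array left out at a time it lay between 2.39 and 3.41.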

How the results depend on the processing

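With every alternative run, the number of member probe sets that passed was 0 in each of the 9 comparisons, the replicate block included. The 16 differences at an unadjusted p under 0.05 kept their sign in all 236 values from the alternatives. Many of these values could not differ. The moderated test, the replicate block, probe sets with 1 symbol alone and the compared groups alone leave a difference unchanged by construction. Leaving out an array of a genotype not compared does the same, as does averaging where a gene has 1 probe set. Only the remaining values could have changed sign. Deviations of same-numbered arrays correlated with r from −0.163 (pRb_null and double_null) to 0.197 (p53_null and double_null) over 6 pairs of genotypes. Whether replicate numbers pair some of the arrays was not settled by these values. The block took the calls over all probe sets in double_null against control to 0, against 192 without it. A block also lowers the residual degrees of freedom from 4, so this fall cannot show whether arrays are paired. A block with the pRb_null numbers crossed, added after the data had been seen, also gave 0 members. Setting array medians to 0 moved the median of all probe sets by up to 0.223 (p53_null against pRb_null), and the signs of the 16 differences held relative to it. Limma's moderated test called 0 of all probe sets in every comparison. The quantities that moved by more than the spread between arrays were list medians against control, and the cause was not tested. For the ceramide list in pRb_null the median was −0.39 after quantile normalization and 0.39 with each gene's probe sets averaged, and with that averaging the fatty acid list was at 0.24 in pRb_null, −0.88 in p53_null and −0.22 in double_null. With 1 array left out, the medians in pRb_null, p53_null and double_null ran as follows. The ceramide list ran from −0.377 to −0.124, 0.280 to 0.416 and 0.285 to 1.04, and the fatty acid list from −1.22 to −0.386 in double_null. Other lipoxygenases ran from −0.380 to 0.603, −1.65 to −0.799 and −1.39 to −0.155, and ABC transporters from −0.483 to 0.504 in pRb_null. Cholesterol genes ran from 0.307 to 0.856, −0.909 to −0.435 and −0.889 to −0.0367, and barrier regulators from −0.0241 to 0.628, −1.68 to −1.07 and −0.758 to −0.298.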
